A study of Homo sapiens with 6 samples.

Results

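The transcripts of 10 adhesive matrix glycoprotein genes, FN1, TNC, THBS1, THBS2, THBS3, SPARC, POSTN, TGFBI, ECM1 and MATN2, were followed after silencing of OGT. They were found by gene symbol among the 16907 symbols of each library, and all 10 were among the 14853 genes that passed the filter on low counts. The cells were LX-2, an established human line of hepatic stellate cells (the liver cells that become matrix-producing myofibroblasts), grown in medium with serum. In the siOGT group they had received a pool of small interfering RNAs against OGT, the enzyme that adds the sugar O-GlcNAc to proteins inside the cell, and in the siControl group a single negative control siRNA from another supplier. Both were applied at 20 nM for 72 h, with 3 biological replicates per group. LX-2 is a single line without the other cells of the liver, and the siRNAs of the pool were not tested apart.

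Adhesive glycoproteins are secreted into the extracellular matrix, where they link collagen fibres, growth factors and cell surface receptors. Fibronectin (FN1) is assembled into fibrils by cells through integrins and serves as a scaffold for other matrix proteins. Tenascin-C, the thrombospondins, SPARC and periostin belong to the matricellular group, which modulates how cells attach rather than forming the bulk of the matrix. In fibrotic liver, stellate cell-derived myofibroblasts are a main source of several of these proteins.

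Promoter sequences are shown for SPARC, THBS1, THBS2, POSTN and ECM1, since these windows held a motif searched for and the genes differ in how they responded. Each window comprises the 250 bases before the gene's start in RefSeq (GRCh38.p14), read 5′ to 3′ on the gene's strand: chr5:151686916-151687165 (minus strand) for SPARC, chr15:39580829-39581078 (plus strand) for THBS1, chr6:169253847-169254096 (minus strand) for THBS2, chr13:37598769-37599018 (minus strand) for POSTN and chr1:150507859-150508108 (plus strand) for ECM1. Except for THBS1, these windows lie partly within the gene as GENCODE draws it. Capitals mark GGAATG, the core recognised by TEAD factors, TGANTCA, recognised by AP-1, and TATAAA, the TATA box, searched on both strands.
SPARC: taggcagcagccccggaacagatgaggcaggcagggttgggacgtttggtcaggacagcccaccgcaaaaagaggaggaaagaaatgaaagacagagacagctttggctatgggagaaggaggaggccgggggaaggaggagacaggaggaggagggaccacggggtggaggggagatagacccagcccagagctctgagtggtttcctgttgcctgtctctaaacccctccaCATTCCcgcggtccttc
THBS1: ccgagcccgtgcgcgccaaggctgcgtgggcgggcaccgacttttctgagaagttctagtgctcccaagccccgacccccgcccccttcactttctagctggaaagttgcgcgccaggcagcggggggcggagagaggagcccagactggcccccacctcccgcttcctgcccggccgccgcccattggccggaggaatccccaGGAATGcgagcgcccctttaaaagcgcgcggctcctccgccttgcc
THBS2: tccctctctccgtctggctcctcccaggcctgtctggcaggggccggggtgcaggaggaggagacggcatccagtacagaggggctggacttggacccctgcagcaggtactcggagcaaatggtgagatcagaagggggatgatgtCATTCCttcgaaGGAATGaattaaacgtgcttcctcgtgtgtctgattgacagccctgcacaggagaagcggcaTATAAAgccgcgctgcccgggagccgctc
POSTN: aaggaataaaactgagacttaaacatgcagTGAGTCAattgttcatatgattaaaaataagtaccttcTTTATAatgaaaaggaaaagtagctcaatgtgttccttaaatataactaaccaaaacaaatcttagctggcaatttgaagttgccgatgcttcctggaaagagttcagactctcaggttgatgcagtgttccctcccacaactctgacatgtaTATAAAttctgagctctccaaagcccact
ECM1: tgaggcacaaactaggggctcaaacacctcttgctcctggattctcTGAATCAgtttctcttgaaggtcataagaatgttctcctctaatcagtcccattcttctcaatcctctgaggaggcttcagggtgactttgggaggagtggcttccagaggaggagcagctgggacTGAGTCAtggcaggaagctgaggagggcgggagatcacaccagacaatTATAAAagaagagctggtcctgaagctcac
A window was available for 9 of the 10 genes. GGAATG stood in the windows of 3 of them (SPARC, THBS1 and THBS2), against 11.9% of all 34943 promoter windows of this length. THBS2 held it on both strands, from 103 to 98 and from 91 to 86 bases before the start. TGANTCA, which reads alike on both strands, stood in the windows of POSTN and ECM1, with 2 copies in ECM1, against 6.59% of all windows. TATAAA was present in THBS2, POSTN and ECM1, against 10.8% of all windows, and in each of them a copy began 29 or 30 bases before the start. The marked matches do not overlap one another. They are matches of letters, and binding was not measured here.

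OGT was examined first. The siControl libraries had 145 ± 28.9 CPM (counts scaled to the library total, with TMM factors) and the siOGT libraries 32.0 ± 6.94 CPM (SD, n = 3 in either group), which corresponds to -2.18 on the log2 scale (adjusted p 2.71e-12, edgeR). Library totals ranged from 25996770 to 27966801 expected counts. Of 9 stellate cell markers, 8 were tested, and their mean levels in siControl reached from 0.135 CPM for DES and 6.55 CPM for ACTA2 to 2658 CPM for COL1A1 and 3200.3 CPM for VIM, while LRAT had 2 expected counts in all. Of the 8 markers 5 were called, COL1A1, COL1A2, COL3A1 and PDGFRB lower and RELN higher, where 25.4% of all genes tested were called. Hepatocyte markers summed to between 3.40 and 4.44 CPM in siControl and between 3.34 and 3.48 CPM in siOGT, and ALB had 4 expected counts over all 6 libraries. Endothelial markers summed to 3.93 to 8.37 CPM and 3.52 to 6.39 CPM, and of 5 tested 1, VWF, was called (lower, 2.60 against 1.35 CPM). Cholangiocyte markers summed to 88.6 to 128 CPM and 91.4 to 129 CPM, mostly from SOX9, with EPCAM at 3 and CFTR at 1 expected counts. Macrophage markers summed to 124 to 156 CPM in siControl and 170.2 to 202 CPM in siOGT, mostly CD68, a lysosomal protein (log2 fold change 0.46, adjusted p 0.000947, edgeR), whereas PTPRC had 0.536 and 0.520 CPM and CD163 had 2 expected counts in all. CD68 shares 81.6% of its exonic bases with another annotated gene on the same strand, so that its value is uncertain. Whether these markers bear on the results below was not tested.

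To determine how OGT silencing affected the adhesive glycoproteins, siOGT was compared with siControl in a fit blocked on replicate number, and genes with adjusted p ≤ 0.05 were called. SPARC was higher in siOGT, by 35.4%. POSTN fell by 50.9%, ECM1 fell by 29.6%, TGFBI fell by 19.6% and FN1 fell by 17.9%. Thus 5 of the 10 genes were called, 1 higher and 4 lower, where 25.4% of all 14853 genes were called, 12.7% in either direction. All 10 averaged 1 CPM or more, and 29.9% of such genes were called. TNC, THBS1, THBS2, THBS3 and MATN2 were not called. The median log2 fold change over the 10 genes was -0.08, against 0.01 over all genes tested. In bulk RNA, fewer cells making a transcript and less of it per cell cannot be told apart. Without the block edgeR called 0 of the 10 (for 2 the unadjusted p was ≤ 0.05), against 0.875% of all genes (0.478% higher, 0.397% lower). DESeq2 with the block called 4, 1 higher and 3 lower, against 19.2% of the 12549 genes to which DESeq2 gave an adjusted p (8.90% higher, 10.3% lower). DESeq2 without it called 2, 1 in either direction, against 6.77% of 12549 genes (3.09% higher, 3.67% lower).

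**Figure D1:**
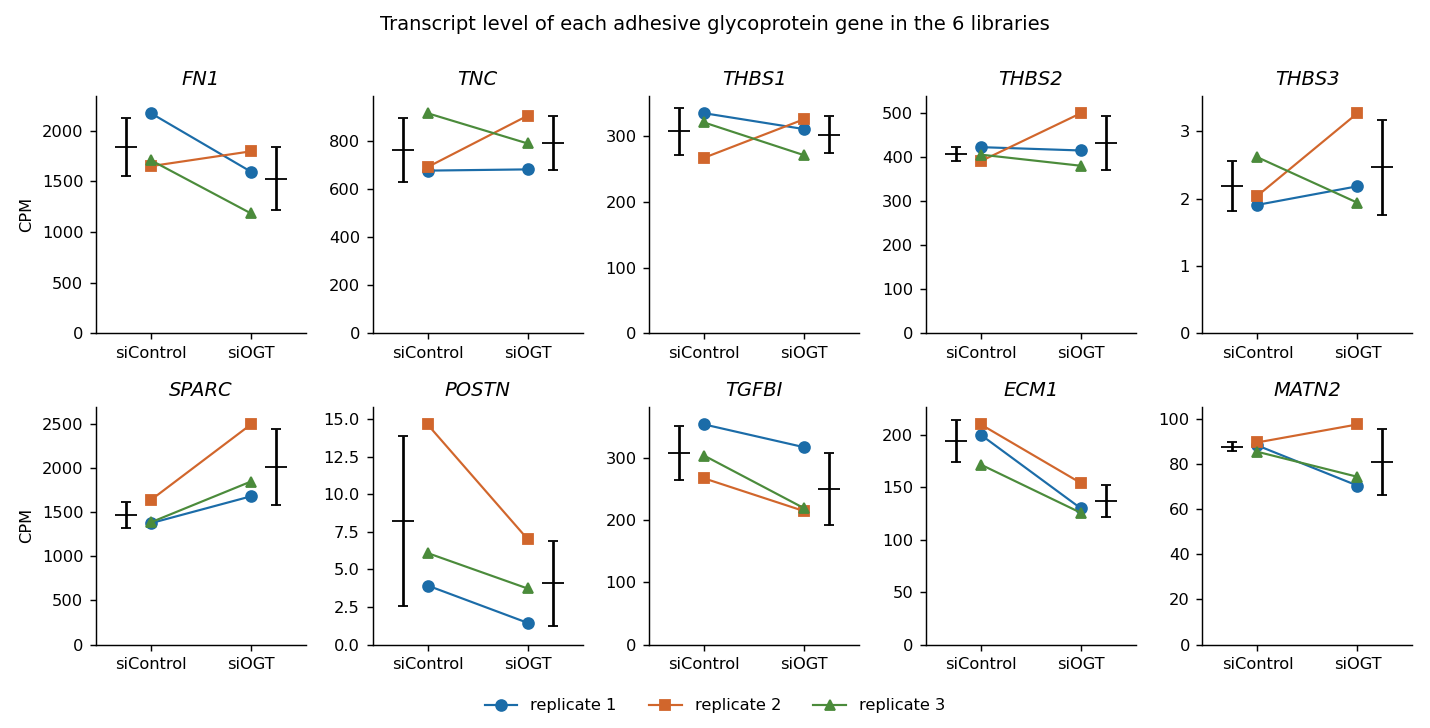
CPM of each gene (vertical axis, linear and starting at 0) in the 6 libraries, with lines joining the siControl and siOGT libraries of a replicate and black bars for the mean ± SD of 3 libraries. The 3 lines of SPARC rise and those of POSTN, ECM1 and TGFBI fall, whereas the lines of the other genes cross or point both ways.

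Levels of different genes were compared as CPM per kb of the Ensembl canonical transcript. SPARC was the highest in siControl, with 425 ± 43.2 CPM per kb (SD, n = 3), followed by FN1 with 220.0 ± 34.2. TGFBI (113 ± 16.02), ECM1 (94.7 ± 9.72) and TNC (89.5 ± 15.7) came next on this scale, and the siControl ranges of these 3 genes overlapped one another. THBS2 (71.2 ± 2.79), THBS1 (39.5 ± 4.59) and MATN2 (21.3 ± 0.515) were lower. POSTN (2.49 ± 1.72) and THBS3 (0.696 ± 0.119) had the lowest levels, with 39 to 373 and 51 to 88 expected counts per library. In siOGT the level of ECM1 was 66.7 ± 7.49 CPM per kb and that of THBS2 75.7 ± 10.8, so that their ranges, separate in siControl, overlapped. These levels assume that the canonical transcript is the expressed form, and transcripts were not resolved.

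**Figure D2:**
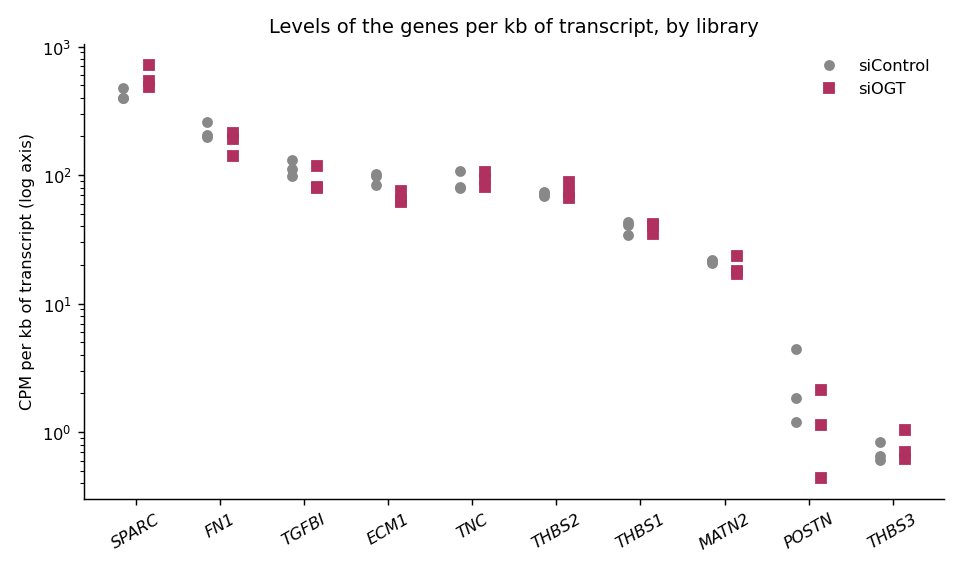
CPM per kb of canonical transcript (vertical log axis) of the 10 genes in order of their siControl mean; each point is a library, circles for siControl and squares for siOGT. The levels run from 425 for SPARC to 0.696 for THBS3 in the siControl mean, and for ECM1 and SPARC the points of the groups are apart.

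Among the large adhesive proteins, FN1 encodes fibronectin (chromosome 2, 215360440 to 215436073, minus strand, hg38). Its siControl libraries had 2175, 1652 and 1710.0 CPM in the order of replicates 1 to 3, and its siOGT libraries 1597, 1798 and 1185 CPM. The groups overlapped, because siOGT 2 lay above siControl 2 and siControl 3. Within pairs the log2 ratio was -0.45, 0.12 and -0.53, so that FN1 was lower in 2 of 3 pairs. The fit gave a log2 fold change of -0.28 (95% confidence interval from -0.49 to -0.08, SE 0.096, adjusted p 0.0377 in edgeR). This call was lost without the block (0.397), with DESeq2 (0.345 with the block), with library totals alone (0.0591), with filterByExpr (0.0569), with robust shrinkage of the spread (0.0895), and without replicate 1 (0.331) or replicate 3 (0.245). Without these pairs FN1 stood at -0.20 and -0.17 on the log2 scale, and without replicate 2 at -0.49.

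TNC encodes tenascin-C (chromosome 9, 115019575 to 115118207, minus strand), a hexameric protein that is induced in wounds and can interfere with attachment to fibronectin. It had 676, 691 and 915 CPM in siControl and 681, 905 and 789 CPM in siOGT. The groups overlapped almost fully, and the gene was higher in siOGT in 2 of 3 pairs. Its log2 fold change was 0.06 (95% confidence interval -0.12 to 0.25) with an adjusted p in edgeR of 0.662. As a change in level, the interval reached from -8.26% to 18.8%.

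The thrombospondins are multimeric calcium-binding proteins. THBS1 (chromosome 15, 39581079 to 39599466, plus strand) and THBS2 (chromosome 6, 169215780 to 169254050, minus strand) encode the trimeric forms that inhibit angiogenesis, and thrombospondin 1 can activate latent TGF-β. THBS1 had 335, 267 and 321 CPM in siControl and 311, 326 and 271 CPM in siOGT. THBS2 had 422, 391 and 405 CPM in siControl and 415, 499 and 380.2 CPM in siOGT. In both genes siOGT 2 was above siControl 2 and the other siOGT libraries were below their controls. The log2 fold change was -0.02 for THBS1 (95% confidence interval -0.20 to 0.15, adjusted p 0.878, edgeR) and 0.08 for THBS2 (-0.09 to 0.25, 0.517). Per kb, THBS2 exceeded THBS1 in each library, by 1.72 to 1.997 times in siControl and 1.82 to 2.09 times in siOGT. THBS3 (chromosome 1, 155195588 to 155209051, minus strand), a pentameric form, had 51, 52 and 73 counts in siControl and 59, 88 and 52 in siOGT. Its interval was the widest of the 10, from -0.36 to 0.66 around a log2 fold change of 0.15 (adjusted p 0.701, edgeR), and counting error alone was 14.0% in its lowest library. Antisense genes overlap 31.2% of the exonic bases of THBS2 and 25.9% of those of THBS3, and the counting used strand.

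SPARC (chromosome 5, 151661096 to 151686975, minus strand), which encodes osteonectin, a collagen-binding protein that acts as a chaperone for collagen assembly and lessens cell attachment, was the 1 gene of the 10 called higher. It had 1375, 1638 and 1385 CPM in siControl and 1679, 2494 and 1847 CPM in siOGT. The groups did not overlap, and siOGT 2 stood above the other siOGT libraries. The log2 ratios within pairs were 0.29, 0.61 and 0.42. The fitted log2 fold change was 0.44 (95% confidence interval from 0.28 to 0.59, SE 0.074, adjusted p 0.000367 in edgeR). Without replicate 2 it was 0.35 (0.00185), and without the block the call was lost with edgeR (0.157) but kept with DESeq2 (0.0489). For SPARC relative to FN1, a ratio chosen after the values were seen, the per-kb levels stood at 1.54, 2.41 and 1.97 in siControl and at 2.56, 3.37 and 3.79 in siOGT. These ratios did not overlap between the groups. SPARC was called higher and FN1 lower in these same libraries, so the ratio is not a further line of support. For SPARC relative to TGFBI the ratios overlapped between the groups, with 3.06, 4.83 and 3.59 in siControl and 4.17, 9.16 and 6.64 in siOGT. The ratios of POSTN to TGFBI and of THBS2 to THBS1 overlapped between the groups too.

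POSTN (chromosome 13, 37562583 to 37598844, minus strand) and TGFBI (chromosome 5, 136028988 to 136063818, plus strand) encode periostin and the TGF-β-induced protein, which are related through their fasciclin domains and bind integrins and collagen. POSTN was the gene with the largest fitted change among the 10, from a low level. It had 105, 373 and 170 counts in siControl and 39, 189 and 100 in siOGT, that is 3.93, 14.7 and 6.09 CPM against 1.44, 7.02 and 3.73 CPM. The siControl libraries differed among themselves by up to 3.73 times, and the groups overlapped, since siOGT 2 was above siControl 1 and siControl 3. Within pairs siOGT amounted to 36.8%, 47.9% and 61.2% of siControl. The log2 fold change was -1.03 (95% confidence interval from -1.35 to -0.71, SE 0.15, adjusted p 0.0001165 in edgeR). The call was present without any 1 pair and with DESeq2 with the block (0.000156), and it was lost without the block with edgeR (0.368) and DESeq2 (0.514).

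TGFBI had 353, 267 and 303 CPM in siControl and 316, 214 and 219 CPM in siOGT. It was lower in each pair, by log2 ratios of -0.16, -0.32 and -0.47, although siOGT 1 was above siControl 2 and siControl 3. The log2 fold change was -0.31 (95% confidence interval from -0.46 to -0.17, SE 0.071, adjusted p 0.00343 in edgeR). Without the block the adjusted p-value was 0.357 with edgeR and 0.307 with DESeq2.

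ECM1 (chromosome 1, 150508062 to 150513789, plus strand) encodes extracellular matrix protein 1, which binds fibronectin and other matrix proteins and in the liver is known to keep latent TGF-β from being activated. Its siControl libraries had 200.02, 209.9 and 172 CPM and its siOGT libraries 129.9, 154 and 126 CPM. The groups did not overlap, and siOGT amounted to 64.9%, 73.4% and 73.2% of siControl in the pairs. The log2 fold change was -0.51 (95% confidence interval from -0.65 to -0.37, SE 0.066, adjusted p 3.55e-05 in edgeR). Without the block the adjusted p-value was 0.0665 with edgeR and 0.00290 with DESeq2. MATN2 (chromosome 8, 97868840 to 98036724, plus strand), which encodes matrilin-2, an adaptor of filamentous matrix networks, had 88.4, 89.8 and 85.6 CPM in siControl and 70.6, 97.8 and 74.5 CPM in siOGT. The siControl libraries lay close together, and siOGT 2 was above and the other siOGT libraries below all of them. The log2 fold change was -0.13 (95% confidence interval -0.30 to 0.03, adjusted p 0.233, edgeR), and without replicate 2 MATN2 was called lower (-0.26, adjusted p-value 0.0194).

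**Figure D3:**
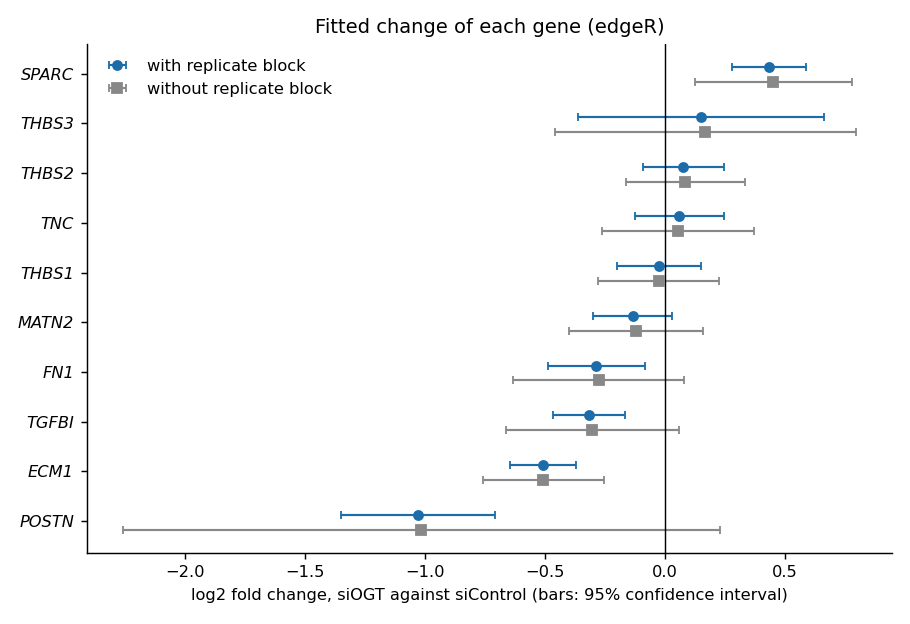
Log2 fold change of siOGT against siControl for the 10 genes from edgeR, with the replicate block (circles) and without it (squares); bars are 95% confidence intervals. With the block the intervals of SPARC, FN1, TGFBI, ECM1 and POSTN leave out 0, without it those of SPARC and ECM1 do, and for POSTN the interval widens from -1.35 to -0.71 with the block to -2.26 to 0.23 without it.

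The replicates were then compared, since the calls depended on pairing. The groups of 3 libraries did not overlap for 2 of the 10 genes, SPARC and ECM1, against 23.9% of all genes tested. The sign was the same in all 3 pairs for 4 genes, SPARC, POSTN, TGFBI and ECM1, against 54.0% of all genes tested. In pair 2 the ratio of siOGT to siControl was the highest of the 3 pairs for 8 of the 10 genes, and for 36.2% of the 12373 genes averaging 1 CPM or more. In this pair 3 of the 10 genes were lower in siOGT, compared with 7 in pair 1 and 9 in pair 3. Over the 12373 genes 49.1% were lower in pair 2, and the median log2 ratio was between -0.0029 and 0.0049 in the 3 pairs. What set pair 2 apart for these genes was not tested.

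**Figure D4:**
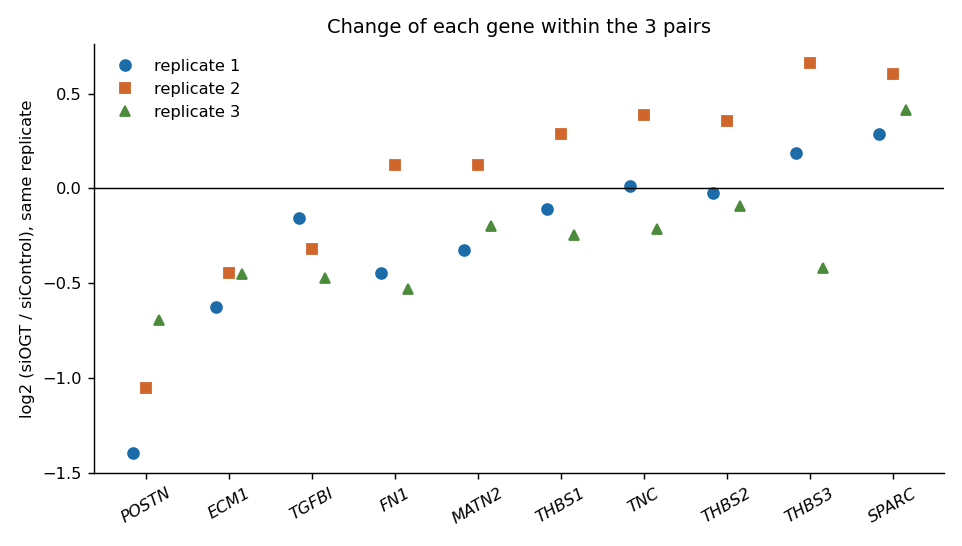
Log2 ratio of siOGT to siControl within each replicate pair (vertical axis, prior count of 2) for the 10 genes in order of the fitted change; each point is a pair. The points of replicate 2 are the highest for 8 genes, and for POSTN, ECM1 and TGFBI all 3 points lie below 0.

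The sum of squares of log2 CPM over the 6 libraries was divided between replicate number, group and the remainder. For ECM1 the group carried 80.1% and for SPARC 56.7%. For POSTN the replicate number carried 70.4% and the group 27.6%, and for TGFBI 59.9% and 34.4%. For FN1 the shares were 39.3% and 29.8%, with 30.9% remaining, and for THBS1 76.7% remained. The medians over 12373 genes were 48.6% for replicate number and 27.1% for group. Thus POSTN and TGFBI varied mainly between replicates, as did TNC (52.6%), and ECM1 and SPARC mainly between groups. Replicate number has more levels than group, so that the shares of the 2 are not on an equal footing. The genes with the most similar pattern to FN1 over the 6 libraries were NCBP1 (Pearson r 0.998), FBN1 (0.990) and KIF14 (0.982), among 9619 genes of at least 10 CPM. NCBP1 encodes a cap-binding protein, FBN1 fibrillin-1 and KIF14 a mitotic kinesin. These genes were picked as the highest of 9619 correlations over only 6 libraries, a choice that by itself favours high values. NCBP1 hardly varied, moving from 85.4 ± 1.95 to 83.0 ± 2.41 CPM (SD, n = 3 each). It was not called (log2 fold change -0.04, adjusted p 0.686, edgeR), nor was FBN1 (-0.15, 0.188), whereas KIF14 was called lower (-0.25, 0.0431). The libraries share replicates and groups, and the correlations only describe likeness.

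Genes that work with these glycoproteins were taken from 4 lists. Of 14 receptors tested among 16 listed, 8 were called, 1 higher and 7 lower, and of 13 proteins of focal and fibrillar adhesions 8 were called, 1 higher and 7 lower, where 25.4% of all genes and 29.9% of genes of at least 1 CPM were called. Their median log2 fold changes were -0.18 and -0.23, against 0.01 over all genes tested. ITGA5, the α subunit of the main fibronectin receptor, rose from 534 ± 51.3 to 670.4 ± 6.30 CPM (SD, n = 3 each; log2 fold change 0.33, adjusted p 0.00250, edgeR). LRP1, an endocytic receptor that takes up thrombospondins, fell from 407 ± 17.9 to 291 ± 48.8 CPM (-0.49, adjusted p 0.000212, edgeR). ITGB3, the β3 integrin subunit, fell from 12.2 ± 2.04 to 8.59 ± 2.18 CPM (-0.52, adjusted p 0.00434, edgeR). It shares 33.2% of its exonic bases with another gene on the same strand, so that its value is uncertain. ITGB5, the β5 integrin subunit, fell from 49.2 ± 5.40 to 42.6 ± 7.12 CPM (-0.22, adjusted p 0.0397, edgeR).

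Among adhesion proteins, FERMT2 (kindlin-2, an activator of integrins) rose with a log2 fold change of 0.42 (adjusted p 0.000143, edgeR). TGM2, the transglutaminase that crosslinks fibronectin, and TNS2, a tensin that links integrins to actin, fell with log2 fold changes of -0.72 and -0.45 (adjusted p in edgeR 0.000221 and 0.000106). ILK, the integrin-linked pseudokinase, fell from 286 ± 5.73 to 244 ± 18.8 CPM (SD, n = 3 each), by 0.23 on the log2 scale (adjusted p 0.0203, edgeR). TAF10, on the opposite strand, overlaps 68.1% of the exonic bases of ILK. Of 16 genes of the TGF-β pathway 5 were called, 3 higher and 2 lower, or 31.2% against 25.4% of all genes and 29.9% of genes of at least 1 CPM. The median log2 fold change of this list was 0.0038. TGFBR1 and TGFB1, a receptor and the ligand, fell by 0.30 and 0.25 on the log2 scale. PMEPA1 and SMAD7, which are feedback inhibitors, rose by 0.77 and 0.50, from 1.75 and 6.35 CPM. These 4 genes had adjusted p in edgeR between 0.00372 and 0.0257.

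Relatives of the 10 genes were represented by 27 tested of 35 listed, and 6 of them were called, 2 higher and 4 lower, or 22.2% against 25.4% of all genes. Of the 27, only 14 averaged 1 CPM or more, and all 6 called genes were among these 14. Of all genes of at least 1 CPM 29.9% were called. VTN, which encodes vitronectin, fell from 6.47 ± 2.06 to 2.69 ± 1.09 CPM (SD, n = 3 each; log2 fold change -1.28, adjusted p 7.99e-05, edgeR). VTN shares 17.3% of its exonic bases with another annotated gene on the same strand, so that its value is uncertain. SRPX, a secreted sushi-repeat protein, changed by -0.62 on the log2 scale (adjusted p 0.000815, edgeR). NOV, listed now as CCN3 and encoding a matricellular protein, rose from 83.0 ± 6.65 to 120.4 ± 7.42 CPM (0.54, adjusted p 5.70e-05, edgeR). TNXB, encoding tenascin-X, rose by 0.27 on the log2 scale (adjusted p 0.0156, edgeR), and its value is uncertain because a near-identical partial copy lies beside it in the genome. Without the block edgeR called 1 gene of the 4 lists, against 0.875% of all genes tested. The lists held 27 relatives, 14 receptors, 13 adhesion proteins and 16 TGF-β pathway genes that were tested.

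**Figure D5:**
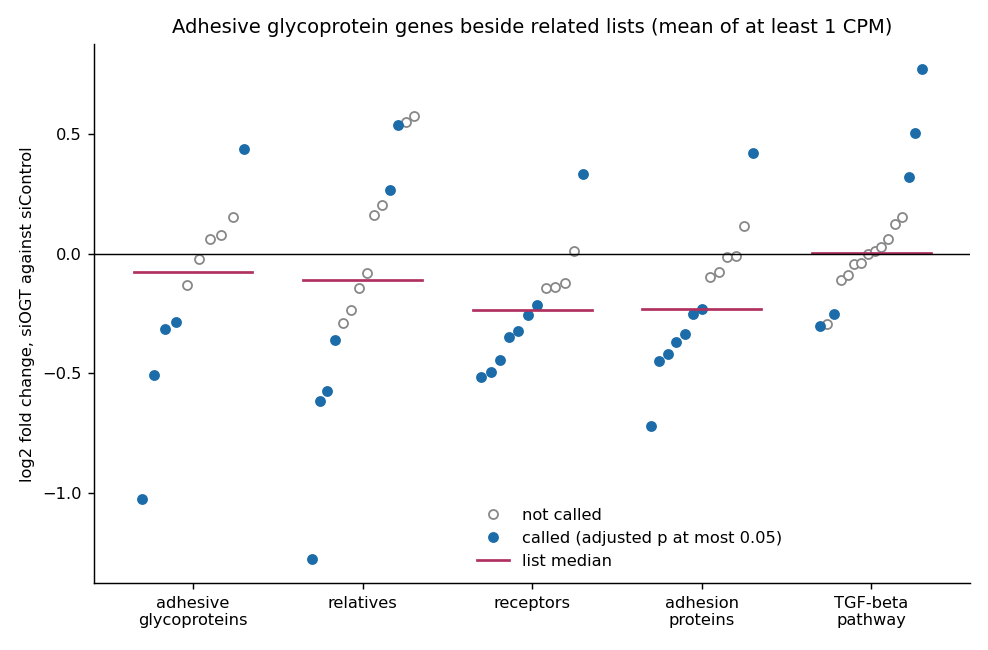
Log2 fold change of siOGT against siControl (vertical axis) of the 10 genes and of the 4 related lists, for genes averaging 1 CPM or more; filled points were called (adjusted p ≤ 0.05) and red lines are list medians. The medians of the receptors and adhesion proteins lie at -0.23, and that of the TGF-β pathway lies at 0.0038.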

How the data were processed

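RNA had been enriched with oligo-dT and sequenced paired-end in 6 libraries. Per the study's methods and the submitters' processing notes, the authors aligned reads to hg38 with Bowtie2 2.3.5.1 and counted them with RSEM 1.3.1 in a strand-specific mode. The deposited values are RSEM expected counts (estimated counts, in which reads matching several genes are divided), not normalized. A deposited table of the authors' own comparison, with fold changes and p-values, was not used.

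Expected counts were rounded, and only genes reaching a total of 10 were tested. Libraries were scaled by TMM factors (0.979 to 1.02). The main test was the quasi-likelihood F test (edgeR 4.0.16 in R 4.3.3, two-sided) with replicate number as blocking factor, since the study paired the samples, and p was adjusted by Benjamini-Hochberg over 14853 genes. SE and 95% confidence intervals were derived from F. The pairing comes from the study's methods. Deviations from group means over 12373 genes correlated by 0.688, 0.525 and 0.332 in same-numbered libraries. Differently numbered libraries were not correlated in this way, so these values do not test the pairing. Every pair of libraries within a group differed by more than counting noise (chi-square per degree of freedom 19.4 or more). DESeq2 1.42.0, other scalings, filters and left-out libraries were alternatives. On simulated data for this comparison (14853 genes) 94% of changes of 0.5 and 99% of changes of 1 on the log2 scale were recovered. There the changes were planted only in genes above a level that THBS3 did not reach. The spread followed the trend for every gene, and both libraries of a pair shared the same replicate effect. Changes as small as those of FN1 and TGFBI were not simulated, so these shares do not give the power for the 10 genes.

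The 10 genes, the lists and the tests were chosen with earlier results of these data known. Named genes were OGT, the 10 genes, the 3 genes most like FN1 and, of each related list, the 2 lowest and 2 highest called log2 fold changes averaging 1 CPM or more and of equal sign in 3 pairs. Marker genes were named for the check of the cell type. Coordinates and lengths are from GENCODE 44 (hg38) and promoters from RefSeq. Protein sequences were not used here.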

Additional observations from a re-analysis of the deposited data

How the results depend on the processing

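Robust shrinkage of the spread was chosen after the data were seen. OGT remained lower and called under all alternatives run. Among the 10 genes, the calls of SPARC, POSTN, TGFBI and ECM1 remained under the other scalings and filters, robust shrinkage, DESeq2 with the block and without any 1 pair. The 5 called genes kept their sign under every alternative.

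The block mattered most. With no replicate block, 130 genes were called by edgeR, or 0.875% of all genes tested (71 higher, 59 lower). Of the 10 genes it called 0 (0 higher, 0 lower). Of the related lists it called 1 gene (1 higher, 0 lower), where 27 were called with the block (7 higher, 20 lower). The log2 fold changes without the replicate block, no longer called, were -0.27 for FN1, 0.45 for SPARC, -1.01 for POSTN, -0.30 for TGFBI and -0.51 for ECM1. DESeq2 with no replicate block called 849 genes (388 higher, 461 lower), 2 of the 10 genes (SPARC higher and ECM1 lower, so 1 lower) and 7 of the related lists (3 higher, 4 lower). FN1 (-0.28), POSTN (-1.02) and TGFBI (-0.30) were not called there. DESeq2 with the block called 2415 genes, 1117 of them higher, and 4 related genes higher, and did not call FN1 (-0.29). FN1 was also not called with library totals alone (-0.26), filterByExpr (-0.28) or robust shrinkage (-0.28). THBS1 turned to 2.47e-05 on the log2 scale with library totals. At adjusted p ≤ 0.01, 2083 genes were called, 1004 higher and 1079 lower, and 4 related genes were higher, as a stricter threshold lowers a count. For the other differences the cause was not tested.

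Leaving out a pair, or a single library with no block, left between 3 and 3439 genes called (2 to 1652 higher, 1 to 1787 lower) and from 0 to 6 of the 10 genes (from 0 to 1 higher, from 0 to 5 lower). For the related lists the counts ran from 0 to 29 (0 to 8 higher, 0 to 21 lower), with 2 at most where a single library was left out. Among fits without a pair the lowest counts came without replicate 1, with 1803 genes and 17 related genes called. The log2 fold change ranged from -0.49 to -0.12 for FN1, from 0.27 to 0.55 for SPARC, from -0.18 to 0.082 for THBS1, from -0.062 to 0.17 for THBS2, from -0.13 to 0.44 for THBS3, from -0.10 to 0.20 for TNC, from -1.67 to -0.30 for POSTN, from -0.52 to -0.19 for TGFBI, from -0.60 to -0.45 for ECM1 and from -0.28 to -0.040 for MATN2. THBS2 and THBS3 changed sign only when replicate 2 or siOGT 2 was left out. The fit without replicate 2, in which MATN2 was called, shrank the spread of every gene fully to the trend, while all pairs together gave 15.55 prior degrees of freedom. Where a single library is left out, a group of 2 shares the spread estimated over both groups. With 3 pairs, the depth limits POSTN and THBS3, whose counting errors in their lowest libraries were 16.01% and 14.0%.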
